A study of Mus musculus with 4 samples.

Results

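Glycolysis and hypoxia response genes were followed through single-cell libraries of mouse liver cells, as 34 named genes out of the 32285 in the deposited gene lists. The members were taken by gene symbol. They comprise 3 glucose transporters (Slc2a1, Slc2a2, Slc2a3), 3 hexokinases (Hk1, Hk2, Hk3), 8 genes of upper glycolysis (Gpi1, Pfkl, Pfkm, Pfkp, Pfkfb3, Pfkfb4, Aldoa, Aldoc) and 7 of lower glycolysis (Tpi1, Gapdh, Pgk1, Pgam1, Eno1, Pkm, Pklr). A further 6 genes handle lactate and pyruvate (Ldha, Ldhb, Slc16a1, Slc16a3, Pdk1, Pdk4), 4 sense oxygen (Hif1a, Epas1, Egln1, Egln3) and 3 are hypoxia targets (Bnip3, Vegfa, Adm). All 34 symbols were found. Aldoa occurred under 2 identifiers, of which ENSMUSG00000030695, holding nearly all of its molecules, was used.

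The study compared livers of male C57BL/6J mice on the Fibrosis and Tumor model of metabolic dysfunction-associated steatohepatitis (FAT MASH) with those of age-matched mice on chow. Mice entered at 8 weeks of age. The FAT MASH animals received a Western diet rich in fat, sucrose and cholesterol, water with fructose and glucose, and a weekly intraperitoneal injection of carbon tetrachloride, a hepatotoxin, at a low dose, for 12 or 24 weeks, and the chow animals a regular diet for the same times. The labels mention no vehicle injection for the chow animals, so diet and toxin cannot be told apart here. Each of the 4 groups (MASH 12 weeks, chow 12 weeks, MASH 24 weeks, chow 24 weeks) is 1 library. How many animals a library holds is not stated. Hashtag antibodies mark subsets of cells in each library, and no label gives their meaning.

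Livers stood overnight on ice before collagenase digestion, and non-parenchymal cells were collected from a Percoll gradient, a step that enriches them over hepatocytes. The labels call the cells non-parenchymal, yet hepatocyte-like cells numbered 429 to 620 in the MASH libraries and 1364 to 1962 in the chow libraries. With 1 library in each group there is no replicate and no test. Every difference below compares libraries, and each interval in square brackets after a ratio is an exact 95% interval that covers counting error only.

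The 4 libraries kept 15333 cells (MASH, 12 weeks), 16622 (chow, 12 weeks), 18023 (MASH, 24 weeks) and 21777 (chow, 24 weeks). Their median depths were 3084, 1992.5, 3226 and 2084 UMIs (unique molecular identifiers, 1 for each captured RNA molecule) in the same order, so the MASH cells held more UMIs each at both times. The 34 genes held between 0.240% and 0.313% of all UMIs of a library. Cells were clustered without the 34 genes and assigned to 15 classes by marker genes, of which 119 of 132 were highest in the class they stand for. The class led by Dcn and collagens (Col3a1, Col1a2) held 131 to 306 cells in MASH and 41 to 91 in chow. It is called fibroblast- or stellate-like, because 1 and 2 of 7 stellate genes were at 0 UMIs in MASH at 12 and 24 weeks and 4 of 7 in chow at each time, Lrat, Reln and Rgs5 at both, and portal fibroblast and mesothelial genes were present in all 4. Mesothelial genes (Msln, Upk3b, Gpm6a, Krt19, Krt8, Lrrn4) summed to 2367 CPM in MASH and 2762 CPM in chow at 12 weeks. At 24 weeks they summed to 2691 CPM in MASH and 3388 CPM in chow. In MASH at 24 weeks this was above the portal fibroblast genes, at 1089.8 CPM. The name does not cover this mesothelial part, and its share of the cells was not measured. The 7 stellate genes summed to 490.4 CPM in MASH and 688 CPM in chow at 12 weeks and 377 CPM in MASH and 568 CPM in chow at 24 weeks, and Ecm1 alone gave 469 CPM in MASH and 681 CPM in chow at 12 weeks and 333 CPM in MASH and 551 CPM in chow at 24 weeks. The 3 libraries whose barcodes could be compared shared 487 to 732 barcodes in pairs, against 498.9 to 738.6 given by the product of cell numbers over kit barcodes.

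Glycolysis splits glucose into pyruvate: transporters of the Slc2a family bring glucose in, hexokinases trap it as glucose-6-phosphate, phosphofructokinase commits it, and the lower steps make ATP and NADH. Lactate dehydrogenase turns pyruvate into lactate, which leaves through monocarboxylate transporters, while pyruvate dehydrogenase kinases hold pyruvate back from the mitochondria. When oxygen is low, the prolyl hydroxylases Egln1 and Egln3 no longer mark HIF-1α and HIF-2α (encoded by Hif1a and Epas1) for destruction, and the stabilised factors switch on many glycolytic genes, Bnip3, Vegfa and Adm. The control of HIF-1α is mostly at the protein, which RNA counts do not show. In liver, perivenous hepatocytes see less oxygen than periportal ones, and fibroblasts and myeloid cells raise glycolysis on activation.

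The windows from 250 bases before to 50 bases after the start of transcription are shown for 7 members that the results below turn on, as RefSeq sequences of build GRCm38.p6 written 5′ to 3′ along the gene. Capitals mark the core of the hypoxia response element, the stretch that HIF binds, searched as ACGTG or GCGTG on either strand (CACGT or CACGC on the printed strand), with overlapping matches merged. The windows lie at chr11:120948817-120949116 (plus strand) for Slc16a3 (ENSMUSG00000025161), chr6:125165724-125166023 (minus strand) for Gapdh (ENSMUSG00000057666), chrX:106186850-106187149 (plus strand) for Pgk1 (ENSMUSG00000062070), chr4:150236458-150236757 (plus strand) for Eno1 (ENSMUSG00000063524), chr3:89135892-89136191 (plus strand) for Pklr (ENSMUSG00000041237), chr7:46845554-46845853 (plus strand) for Ldha (ENSMUSG00000063229) and chr7:138909457-138909756 (minus strand) for Bnip3 (ENSMUSG00000078566).
Slc16a3: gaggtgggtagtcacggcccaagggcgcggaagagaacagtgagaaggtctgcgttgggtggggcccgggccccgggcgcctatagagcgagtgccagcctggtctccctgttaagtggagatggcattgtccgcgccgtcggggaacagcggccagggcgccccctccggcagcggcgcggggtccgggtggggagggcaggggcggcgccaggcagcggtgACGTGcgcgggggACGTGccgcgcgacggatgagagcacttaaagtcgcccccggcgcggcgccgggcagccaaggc
Gapdh: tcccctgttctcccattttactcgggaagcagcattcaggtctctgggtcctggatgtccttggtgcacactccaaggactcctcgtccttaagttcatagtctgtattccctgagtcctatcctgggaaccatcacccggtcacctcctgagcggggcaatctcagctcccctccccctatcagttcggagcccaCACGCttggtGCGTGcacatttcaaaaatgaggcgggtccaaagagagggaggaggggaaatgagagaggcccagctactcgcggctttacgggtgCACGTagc
Pgk1: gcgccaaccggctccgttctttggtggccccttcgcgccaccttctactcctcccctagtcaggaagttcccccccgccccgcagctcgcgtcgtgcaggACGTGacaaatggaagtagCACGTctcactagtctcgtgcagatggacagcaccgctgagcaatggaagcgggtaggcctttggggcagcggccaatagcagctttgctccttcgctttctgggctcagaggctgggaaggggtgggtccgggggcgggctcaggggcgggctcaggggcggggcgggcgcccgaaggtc
Eno1: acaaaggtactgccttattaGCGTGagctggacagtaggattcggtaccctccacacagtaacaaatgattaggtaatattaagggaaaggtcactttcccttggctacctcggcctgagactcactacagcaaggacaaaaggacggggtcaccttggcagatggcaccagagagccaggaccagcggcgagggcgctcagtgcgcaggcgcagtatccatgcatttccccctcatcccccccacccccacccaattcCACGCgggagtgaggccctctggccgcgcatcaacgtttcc
Pklr: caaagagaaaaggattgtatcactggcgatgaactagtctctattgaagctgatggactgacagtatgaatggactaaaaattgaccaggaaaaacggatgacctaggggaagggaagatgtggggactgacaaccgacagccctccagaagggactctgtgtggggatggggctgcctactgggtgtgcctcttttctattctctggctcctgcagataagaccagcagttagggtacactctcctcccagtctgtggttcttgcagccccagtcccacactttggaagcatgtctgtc
Ldha: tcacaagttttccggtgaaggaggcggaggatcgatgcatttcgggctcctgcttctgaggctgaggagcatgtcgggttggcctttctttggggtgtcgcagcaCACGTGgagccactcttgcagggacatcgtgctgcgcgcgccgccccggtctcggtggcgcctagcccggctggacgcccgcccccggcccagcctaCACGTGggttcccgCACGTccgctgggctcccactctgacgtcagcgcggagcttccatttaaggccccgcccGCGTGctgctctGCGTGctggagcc
Bnip3: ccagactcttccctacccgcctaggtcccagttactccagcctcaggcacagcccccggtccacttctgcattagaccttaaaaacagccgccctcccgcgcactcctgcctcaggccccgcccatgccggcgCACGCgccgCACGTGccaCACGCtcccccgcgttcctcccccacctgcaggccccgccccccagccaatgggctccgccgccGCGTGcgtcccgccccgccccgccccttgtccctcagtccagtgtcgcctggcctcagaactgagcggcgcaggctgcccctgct
The Ldha window held 5 separate core stretches, the Bnip3 window 4, the Gapdh window 3, and the Slc16a3, Pgk1 and Eno1 windows 2 each. The Pklr window held none of these letters. Of the 34 genes, 32 had at least 1 window in the table, and 28 of these (87.5%) carried a core in some window, against 12628 of 27025 genes in the table (46.7%). Epas1 and Slc2a3 had no window. The letters describe the windows and are not evidence of binding in these cells.

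Levels are given as CPM, the counts of a gene's UMIs per 1000000 UMIs of its class in a library. Because the 5′ chemistry counts transcript ends, CPM are compared between classes or libraries for the same gene and never between genes. The mean over the 4 libraries was ranked over the 14 classes with at least 20 cells in every library, which leaves out the cholangiocyte-like class with 13 cells in chow at 24 weeks.

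Of the 3 glucose transporters, Slc2a1 and Slc2a3 were both highest in neutrophil-like cells, while Slc2a2 was highest in other classes. Slc2a1 (GLUT1), the basal transporter of most tissues, was highest in neutrophil-like cells at 48.0, 58.8, 36.8 and 56.4 CPM in MASH 12 weeks, chow 12 weeks, MASH 24 weeks and chow 24 weeks, and values from here on follow this order of libraries where 4 are given. Slc2a3 (GLUT3), a high-affinity transporter of neurons and leukocytes, was highest in neutrophil-like cells (155, 199.8, 233 and 434 CPM), with basophil- or mast-like cells next (179.5, 146, 183 and 139 CPM). The ranges of these classes overlap, so their order is not settled by the 4 libraries. Slc2a2 (GLUT2), the bidirectional transporter of hepatocytes, was highest among the ranked classes in hepatocyte-like cells, on 20, 8, 22 and 22 UMIs. It was also found in the unranked cholangiocyte-like cells at 169, 167, 98.0 and 204 CPM.

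The hexokinases also differed by class. Hk1, the broadly expressed form, was highest in NK-like cells (60.7, 73.6, 64.8 and 69.6 CPM), and its range overlapped those of T-cell-like and endothelial-like cells. Hk2, the inducible form, was highest in basophil- or mast-like cells (46.0, 35.6, 57.4 and 69.5 CPM), overlapping with macrophage-like cells. Hk3, a myeloid hexokinase, was highest in neutrophil-like cells at 153 to 161 CPM over the 4 libraries, and basophil- or mast-like cells reached that range in 3 of the 4.

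In upper glycolysis Gpi1, which makes fructose-6-phosphate, was highest in neutrophil-like cells (387, 489.6, 472 and 388 CPM). The 3 phosphofructokinase subunits differed in place: Pfkl (the liver form) was highest in endothelial-like cells at 56.1 to 60.2 CPM, with fibroblast- or stellate-like cells on either side of it at 34.8 to 82.9 CPM, Pfkm (the muscle form) in fibroblast- or stellate-like cells on 7 to 46 UMIs, and Pfkp (the platelet form) in basophil- or mast-like cells at 144 to 199 CPM. Of the bifunctional enzymes that tune phosphofructokinase, Pfkfb3 led in conventional dendritic-like cells at 34.4 to 75.8 CPM and Pfkfb4 in neutrophil-like cells at 78.3 to 106 CPM. The aldolase Aldoa led in fibroblast- or stellate-like cells at 499 to 691 CPM, overlapping with basophil- or mast-like and neutrophil-like cells. Aldoc led the ranked classes in hepatocyte-like cells at 13.7 to 25.2 CPM and reached 48.7 to 84.7 CPM in the unranked cholangiocyte-like cells.

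Lower glycolysis was a hepatocyte-like pattern in 6 of its 7 genes. Tpi1, Gapdh, Pgk1, Pgam1, Eno1 and Pklr, the liver and red cell pyruvate kinase, were highest in hepatocyte-like cells among the ranked classes, and Eno1 in the unranked cholangiocyte-like cells had 289 to 455 CPM against 303 to 482 CPM in hepatocyte-like cells. Pklr stood at 136, 188, 188 and 83.3 CPM there, and at a mean of 1.72 CPM in the next ranked class. Pkm, the pyruvate kinase of most other cells, was the opposite, with 26.3, 28.4, 34.3 and 27.9 CPM in hepatocyte-like cells and 557, 494, 635 and 506 CPM in neutrophil-like cells.

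Ldha, the lactate dehydrogenase subunit that favours lactate, was highest in hepatocyte-like cells at 1020.3, 535, 1606 and 543 CPM. Ldhb, which favours pyruvate, and the lactate transporter Slc16a1 (MCT1) were highest in fibroblast- or stellate-like cells, Ldhb at 82.0 to 349 CPM and Slc16a1 at 65.5 to 162 CPM. The lactate exporter Slc16a3 (MCT4) was highest in neutrophil-like cells at 229, 199.8, 184 and 501 CPM. The pyruvate dehydrogenase kinases differed, with Pdk1 highest in hepatocyte-like cells at 26.5 to 64.3 CPM and Pdk4 in endothelial-like cells at 31.9 to 53.4 CPM.

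Among the oxygen sensors, Epas1 was an endothelial-like gene at 403, 423, 332 and 420.5 CPM, with hepatocyte-like cells next at 47.7 to 70.5 CPM. Hif1a was spread across classes, highest in plasmacytoid dendritic-like cells at 75.5 to 131 CPM, which monocyte-like cells overlapped at 78.0 to 137 CPM. Egln1 and Egln3 were highest in fibroblast- or stellate-like cells, at 60.9 to 102 CPM and 2.48 to 47.9 CPM, the low end of Egln3 being 1 UMI. Of the targets, the mitophagy receptor Bnip3 was highest in hepatocyte-like cells (285, 303, 437 and 327 CPM) and the vasodilator peptide gene Adm in endothelial-like cells at 17.8 to 45.6 CPM, with a mean close to that of fibroblast- or stellate-like cells (31.8 and 31.6 CPM). Vegfa, the angiogenic factor, was highest among the ranked classes in neutrophil-like cells at 31.3 to 78.0 CPM, and it reached 235, 219, 236 and 288 CPM in the unranked cholangiocyte-like cells.

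**Figure D1:**
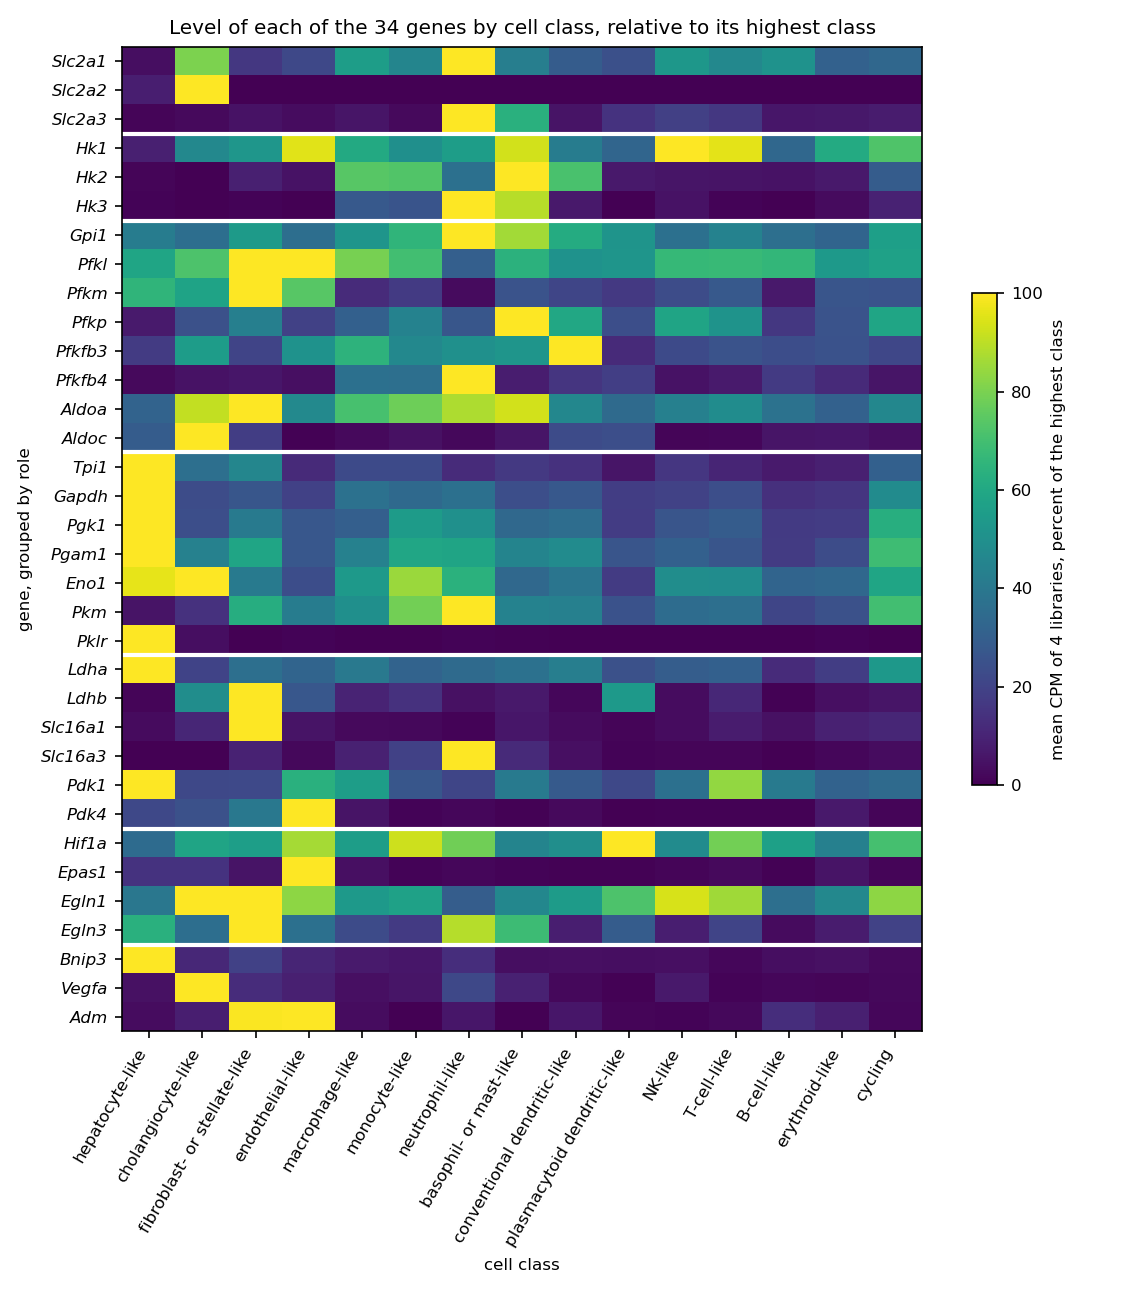
Mean CPM of each of the 34 genes over the 4 libraries in the 15 cell classes (columns), drawn as a percent of the gene's highest class (colour scale from 0 to 100), with rows grouped by role and separated by white lines. Rows are read across, since each is scaled to itself: Pklr and Bnip3 peak in hepatocyte-like cells, Slc16a3 and Pfkfb4 in neutrophil-like cells and Epas1 and Pdk4 in endothelial-like cells.

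Across 56 points (14 classes in 4 libraries), the closest pattern to Pgk1 among the other members was that of Pgam1, the next enzyme of the pathway, with a Pearson correlation of log levels of 0.911. Pklr was most like Slc2a2 (0.853), Epas1 most like Pdk4 (0.844) and Slc16a3 most like Hk3 (0.816). The likeness of Pklr and Slc2a2 holds for these 14 classes, which leave out the cholangiocyte-like class. There the mean of Slc2a2 was 159 CPM, against 13.4 CPM in hepatocyte-like cells. For Pklr the means were 5.41 CPM in cholangiocyte-like and 149 CPM in hepatocyte-like cells. Points of the same library share depth, and these correlations are descriptions without a test.

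The comparison of MASH with chow asked which of these genes differed within a cell class at each time. A gene was compared in a class where at least 20 UMIs were expected in each library at the pooled level, and it was counted as higher or lower where the ratio of CPM, MASH over chow, was at least 1.5-fold from 1. The same rule applied to all genes gives the background. At 12 weeks 291 gene-class pairs of the 34 genes could be compared, and 46 were higher and 25 lower in MASH, where 6.48% and 6.98% of all gene-class pairs were. At 24 weeks, of 279 pairs, 34 were higher and 21 lower, against a background of 8.61% and 5.75%. Each of the 34 genes was compared in at least 1 class, and 33 were higher or lower somewhere. The exception was Slc2a2, which could be compared in cholangiocyte-like cells at 12 weeks, with a ratio of 1.01 [0.745–1.39]. At both weeks 22 pairs were called, 17 higher and 5 lower each time, and none changed direction. Fibroblast- or stellate-like cells held more of these higher pairs than any other class. The same count over all genes was not made, so the agreement is not read as particular to the members. Cells of single hashtags give a spread within a library. Of the called pairs with values for at least 2 hashtags in both libraries, the ranges of MASH and chow were apart in 32 of 52 at 12 weeks, over 3 hashtags a library, and in 9 of 41 at 24 weeks, over up to 8. These pairs had been picked by ratios from libraries that include the same cells. No share over all genes was computed, so the counts describe spread only.

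By role, the lower glycolytic enzymes had the most higher pairs, 19 higher and 1 lower of 90 at 12 weeks and 11 higher and 0 lower of 80 at 24 weeks. They also had the most pairs compared, so this does not rank the roles by share. The shares over all gene-class pairs given above are the background for each role. Of the 19 higher pairs at 12 weeks 9 were Gapdh and 5 were Eno1, whose levels were lowest in the 12-week chow library in 15 and 14 of 15 classes. Upper glycolysis had 6 higher and 6 lower of 70, then 6 and 2 of 71. Lactate and pyruvate handling had 9 higher and 6 lower of 38, then 8 and 8 of 43. Hexokinases had 4 higher and 3 lower of 21, then 5 and 2 of 23. Glucose transporters had 3 higher and 4 lower of 19 at 12 weeks, and 0 higher and 5 lower of 16 at 24 weeks. Hypoxia sensing had 2 higher and 4 lower of 35, then 3 and 1 of 29, and the hypoxia targets 3 higher and 1 lower of 18, then 1 and 3 of 17.

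**Figure D2:**
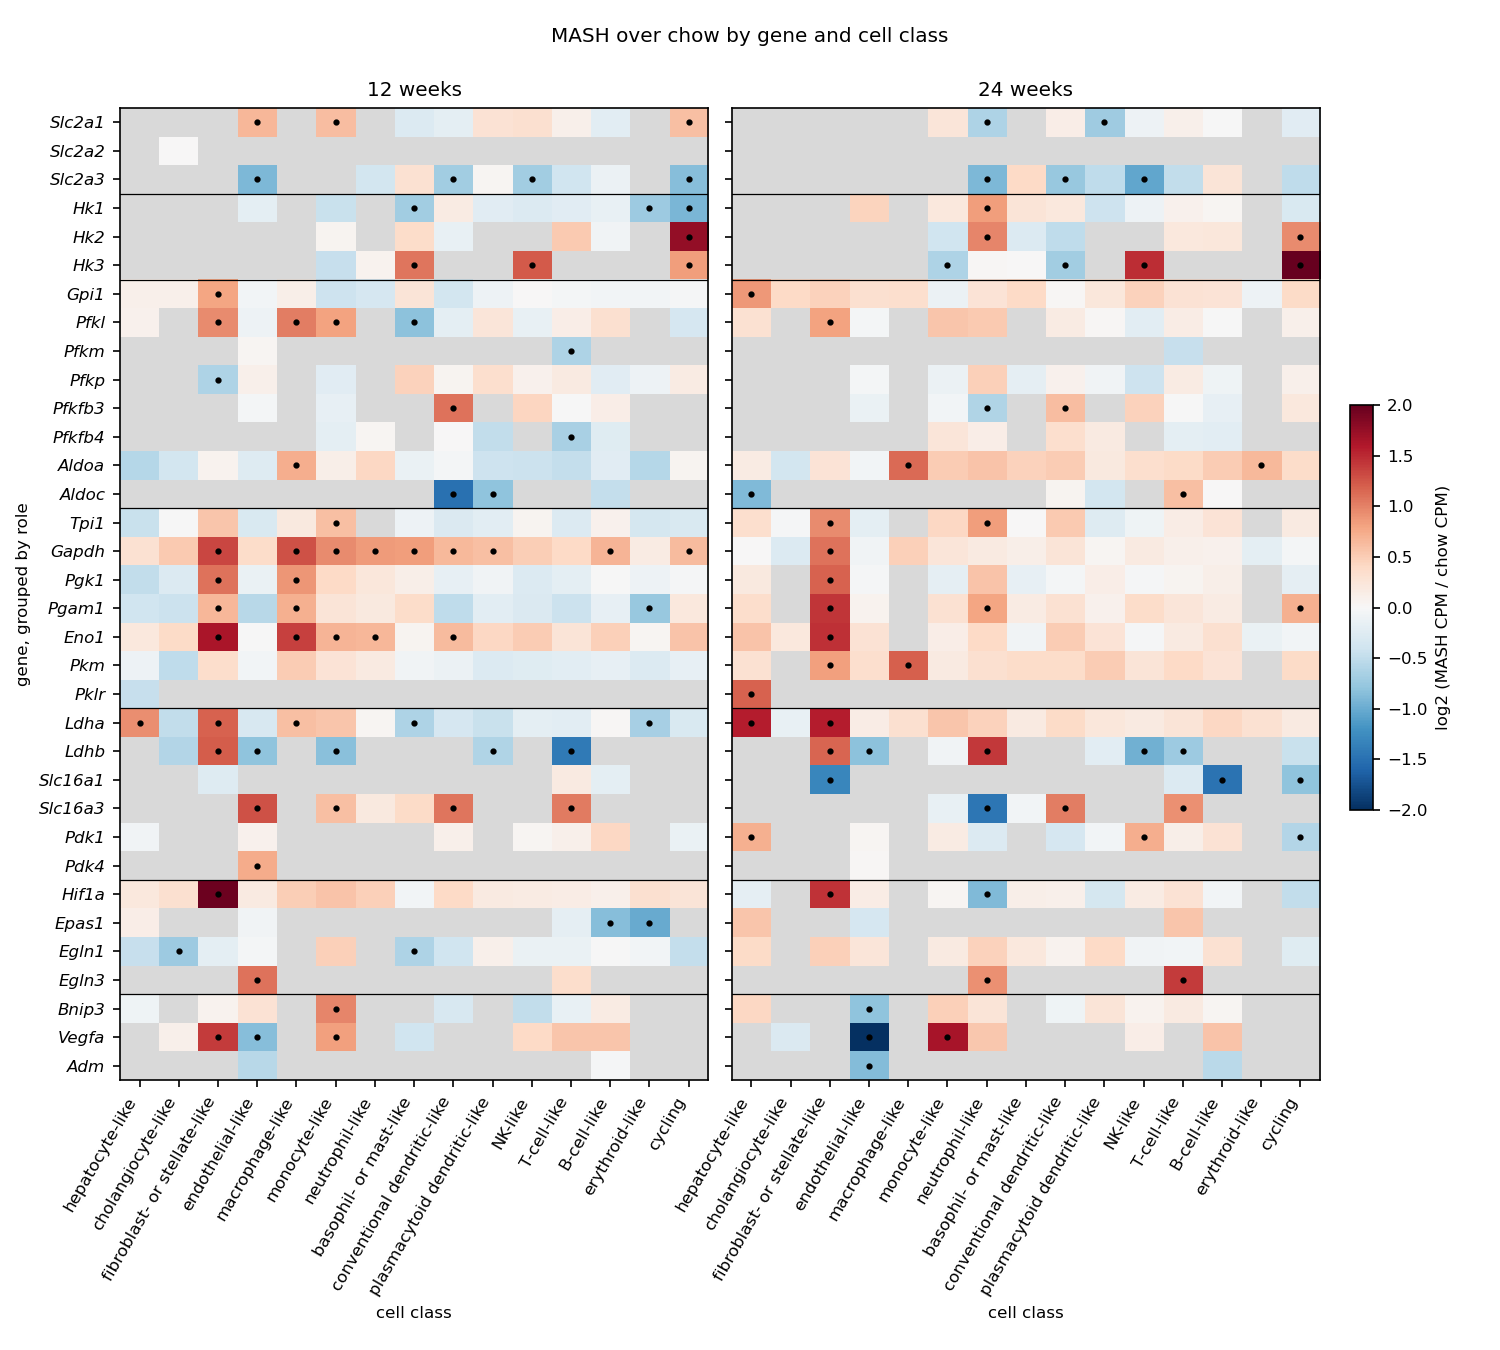
Log2 ratio of CPM, MASH over chow, for the 34 genes (rows, grouped by role) in 15 cell classes (columns) at 12 weeks (left) and 24 weeks (right), with red higher in MASH, blue lower, grey where fewer than 20 UMIs were expected in a library, and a black dot where the ratio was at least 1.5-fold from 1, colours ending at a log2 ratio of 2 in either direction. The fibroblast- or stellate-like column holds 10 dots on red at each time, and neutrophil-like cells at 24 weeks hold 6 dots on red and 5 on blue.

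Fibroblast- or stellate-like cells had the most higher members among the classes. At 12 weeks 10 of the 17 compared members were higher and 1 lower, against 14.3% and 10.6% of all genes compared in that class, and at 24 weeks 10 of 14 were higher and 1 lower, against 19.5% and 11.1%. Eno1, Gapdh, Hif1a, Ldha, Ldhb, Pfkl, Pgam1 and Pgk1 were higher at both times. The median log2 ratio of the compared members was 0.79 at 12 weeks and 1.01 at 24 weeks, where all genes had 0.02 and 0.09. Single-hashtag cells gave 6 higher and 0 lower of 10 at 12 weeks, and chow hashtags 1 to 4, with 10 cells, 4 higher and 0 lower of 5 at 24 weeks. The makeup of this class differed too. Portal fibroblast genes (Clec3b, Pi16, Cd34, Gas1, Dpt, Mfap4, Col15a1) summed to 3028 CPM in MASH and 10241 CPM in chow at 12 weeks and 1089.8 CPM in MASH and 3847 CPM in chow at 24 weeks. The fibrillar collagens (Col1a1, Col1a2, Col3a1) summed to 8332 CPM in MASH and 7459 CPM in chow at 12 weeks, each higher in MASH. At 24 weeks they summed to 2921 CPM in MASH and 2664 CPM in chow. There Col1a2 was higher in MASH (1040 CPM against 693 CPM in chow). Col1a1 (721 CPM in MASH, 778 CPM in chow) and Col3a1 (1160 CPM in MASH, 1193 CPM in chow) were slightly lower. Smooth muscle genes (Myh11, Cnn1, Tagln, Acta2) summed to 373 CPM in MASH and 129 CPM in chow at 12 weeks. At 24 weeks they summed to 264 CPM in MASH and 105 CPM in chow, of which Acta2 gave 245 CPM and 81.1 CPM. Myh11 went the other way at 24 weeks, at 0 UMIs in MASH and 5 in chow. The cell cycle list summed to 244 CPM in MASH and 72.0 CPM in chow at 12 weeks, a ratio of 3.38. At 24 weeks it summed to 319 CPM in MASH and 84.5 CPM in chow, a ratio of 3.78. Handling stress genes, immediate early and heat shock genes such as Fos, Jun and Hspa1a that tissue dissociation can induce, were higher for 9 of 15 at 12 weeks and lower for 8 of 15 at 24 weeks. The part of any of these in the members' ratios was not tested.

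Macrophage-like cells showed 7 of 11 compared members higher and 0 lower at 12 weeks (background 16.3% and 9.64%). At 24 weeks the 20 chow cells left 5 members to compare, of which 2 were higher and 0 lower (background 18.5% and 5.07%). Markers of resident Kupffer cells (Clec4f, Timd4, Vsig4, Marco, Cd163) summed to 371 CPM in both 12-week libraries, and to 78.3 CPM in MASH against 141 CPM in chow at 24 weeks. Genes of lipid-associated macrophages (Trem2, Gpnmb, Spp1, Cd9, Lpl) summed to 3341 CPM in MASH against 637 CPM in chow at 12 weeks and 4773 CPM in MASH against 896 CPM in chow at 24 weeks. Of the handling stress genes 8 of 15 were lower at 12 weeks. The part of these in the members' ratios was not tested.

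Monocyte-like cells had 8 of 23 members higher and 1 lower at 12 weeks (background 6.81% and 4.64%), and 1 of 24 higher and 1 lower at 24 weeks (background 7.01% and 3.47%). Without doublet removal the 12-week count was 5 higher and 1 lower of 24. Neutrophil-like cells had 2 of 13 higher and 0 lower at 12 weeks (background 9.21% and 6.94%). At 24 weeks 6 of 26 were higher and 5 lower (background 18.6% and 5.71%), so the higher share was near that of all genes while the lower share was above it. Against chow hashtags 1 to 4 alone the 24-week count was 2 higher and 2 lower of 12. Immature granule genes (Camp, Ngp, Ltf, Mmp8, Elane, Mpo) summed to 28794 CPM in MASH and 11925 CPM in chow neutrophil-like cells at 24 weeks. Camp, Ngp and Ltf gave nearly all of the sum. Mmp8 (494 CPM in MASH, 611 CPM in chow) and Elane (29.9 CPM in MASH, 47.1 CPM in chow) were lower in MASH. The cluster led by Camp, Ngp and Ltf held 15.9% of the class in MASH and 6.14% in chow. Basophil- or mast-like cells had 2 of 20 higher and 4 lower at 12 weeks (background 7.38% and 11%) and 0 of 17 in either direction at 24 weeks (background 7.29% and 7.45%).

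Hepatocyte-like cells had 1 of 16 members higher and 0 lower at 12 weeks (background 10.4% and 9.18%), and 4 of 17 higher and 1 lower at 24 weeks (background 19.1% and 6.27%). The share at 24 weeks was close to that of all genes in the class, whose median log2 ratio was 0.17, and single-hashtag cells gave 7 higher and 0 lower of 15. Perivenous hepatocyte genes (Cyp2e1, Glul, Cyp1a2, Oat, Cyp2c29) summed to 2666 CPM in MASH against 967 CPM in chow at 12 weeks and 1102 CPM in MASH against 575 CPM in chow at 24 weeks. Oat went the other way, at 194 CPM in MASH and 331 CPM in chow at 12 weeks. At 24 weeks Oat had 235 CPM in MASH and 346 CPM in chow, while the other genes of the list were higher in MASH at both times. Periportal genes (Cyp2f2, Hal, Sds, Gls2, Ass1) summed to 2633 CPM in MASH and 8963 CPM in chow at 12 weeks, and to 7659 CPM in MASH and 10734 CPM in chow at 24 weeks. Leukocyte genes in these cells (Ptprc, Cd74, Tyrobp, Coro1a, Laptm5) summed to 1722 CPM in MASH and 1465 CPM in chow at 12 weeks. At 24 weeks they summed to 1847 CPM in MASH and 1419 CPM in chow. Most of each sum was Cd74, at 1229 CPM in MASH and 937 CPM in chow at 12 weeks. The other genes of the list were each slightly lower in MASH at 12 weeks. At 24 weeks Ptprc and Laptm5 were lower in MASH, and Cd74, Tyrobp and Coro1a higher. The part of these in the members' ratios was not tested. Cholangiocyte-like cells had 0 of 14 higher and 1 lower at 12 weeks (background 7.99% and 4.69%) and 0 of 7 in either direction at 24 weeks (background 6.64% and 5.55%).

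Endothelial-like cells had 4 of 27 members higher and 3 lower at 12 weeks (background 4.76% and 6.45%), and 0 of 22 higher and 4 lower at 24 weeks (background 7.05% and 7.51%). Single-hashtag cells gave 1 higher and 3 lower of 23 at 12 weeks, and at 24 weeks chow hashtags 1 to 4 and 5 to 8 left 2 higher and 1 lower of 13 and 0 higher and 1 lower of 16. Conventional dendritic-like cells had 4 of 23 higher and 2 lower, then 2 of 24 and 2 (backgrounds 7.36% and 6.19%, and 5.52% and 3.85%). Plasmacytoid dendritic-like cells had 1 of 19 higher and 2 lower, then 0 of 21 and 1 (backgrounds 4.39% and 4.25%, and 4.03% and 5.43%). Among lymphocytes, T-cell-like cells had 1 of 28 higher and 3 lower, then 3 of 28 and 1 (backgrounds 6.37% and 5.38%, and 8.14% and 4.86%). B-cell-like cells had 1 of 26 higher and 1 lower, then 0 of 25 and 1 (backgrounds 2.89% and 5.50%, and 3.57% and 4.54%). NK-like cells had 1 of 21 higher and 1 lower, then 2 of 22 and 2 (backgrounds 3.72% and 4.66%, and 5.75% and 6.24%). Cycling cells had 4 of 19 higher and 2 lower, then 3 of 22 and 2 (backgrounds 8.94% and 8.27%, and 10.1% and 7.47%). Erythroid-like cells had 0 of 14 higher and 4 lower, then 1 of 5 and 0 (backgrounds 4.29% and 17.6%, and 13% and 14.5%). The median log2 ratio of all genes was -0.24 and -0.11 in erythroid-like cells and 0.16 in neutrophil-like cells at 24 weeks, so ratios there are read relative to that shift.

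The sum of 18 enzymes (hexokinases, glycolytic enzymes and lactate dehydrogenases) condenses the enzyme members in 1 value for each class. Genes with many UMIs, such as Gapdh and Ldha, weigh most in it, and their own values are given below. Gapdh was lowest in the 12-week chow library in 15 of 15 classes. In hepatocyte-like cells the difference in Ldha alone exceeded that of the sum at 12 weeks. The other enzymes together were thus not higher in MASH there at 12 weeks. At 24 weeks Ldha gave most of the difference in the hepatocyte-like sum. The part of single genes in the ratios of the sum in the other classes was not tested. In macrophage-like cells the sum stood at 3584 CPM in MASH and 2081 CPM in chow at 12 weeks, a ratio of 1.72 [1.59–1.87], and at 3547 CPM in MASH and 2292 CPM in chow at 24 weeks, a ratio of 1.55 [1.34–1.80]. Fibroblast- or stellate-like cells had 3566 CPM in MASH and 2163 CPM in chow at 12 weeks and 4509.7 CPM in MASH and 2512 CPM in chow at 24 weeks, ratios of 1.65 [1.54–1.77] and 1.80 [1.67–1.94]. Both classes were thus higher in MASH at each time. Hepatocyte-like cells had 4708 CPM in MASH and 4289 CPM in chow at 12 weeks (ratio 1.10 [1.05–1.14]) and 6869.8 CPM in MASH and 5106 CPM in chow at 24 weeks (ratio 1.35 [1.31–1.38]). Across hashtags the hepatocyte-like sum at 24 weeks ran from 6513 to 7601 CPM in MASH and from 4587 to 5974 CPM in chow, without overlap, while the 12-week ranges overlapped. In monocyte-like cells the ratio was 1.29 [1.25–1.33] and then 1.16 [1.13–1.19], and in neutrophil-like cells 1.22 [1.13–1.32] and then 1.30 [1.26–1.33]. Endothelial-like cells were lower at 12 weeks (0.926 [0.894–0.959]) and had an interval that includes 1 at 24 weeks (1.05 [0.995–1.10]). Erythroid-like cells were lower at both times (0.854 [0.796–0.918] and 0.841 [0.729–0.974]).

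**Figure D3:**
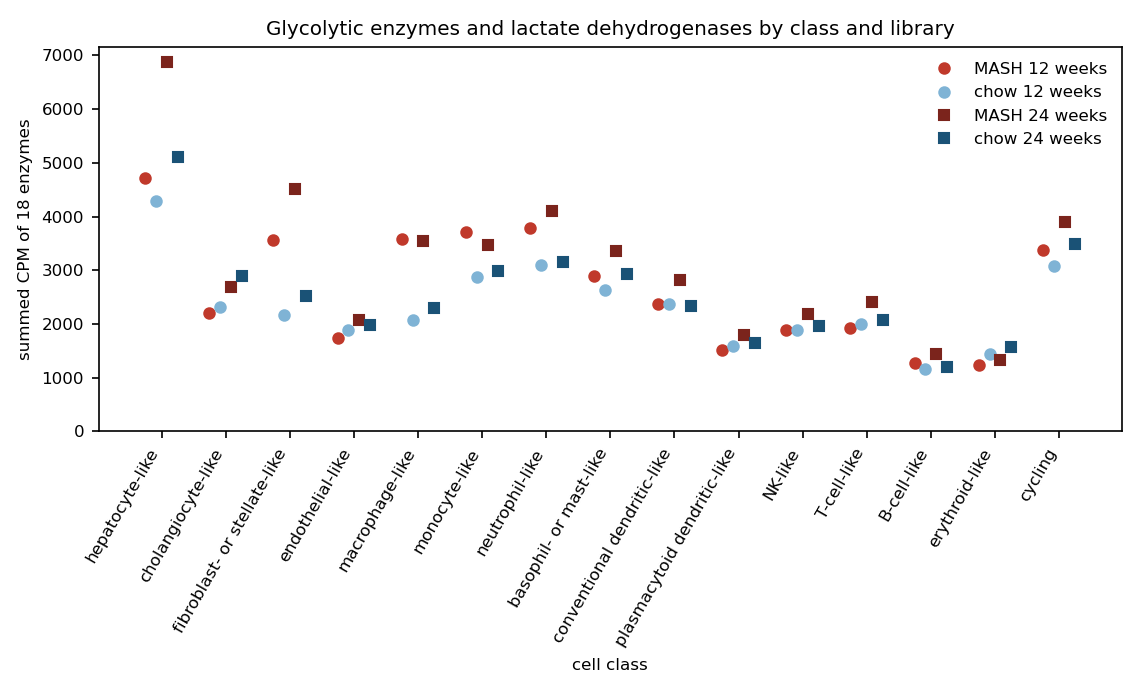
Summed CPM of 18 glycolytic enzymes and lactate dehydrogenases in the 15 cell classes, with points in the order MASH 12 weeks, chow 12 weeks, MASH 24 weeks, chow 24 weeks within each class. Each point is 1 library. The macrophage-like and fibroblast- or stellate-like MASH points lie well above their chow points at both times, and the highest point is MASH hepatocyte-like cells at 24 weeks, at 6869.8 CPM.

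Glucose transporters were mostly lower where they differed. In neutrophil-like cells at 24 weeks Slc2a3 had 233 CPM in MASH and 434 CPM in chow, a ratio of 0.536 [0.493–0.584]. Its hashtag values ran from 205 to 329 CPM across the hashtags of the MASH library and 332 to 668 CPM across those of the chow library, so they did not overlap. At 12 weeks the same cells had 155 CPM in MASH and 199.8 CPM in chow, with a ratio of 0.775 [0.557–1.09] whose interval includes 1. Slc2a3 was also lower in NK-like cells at both times, with 35.5 CPM in MASH and 57.4 CPM in chow, a ratio of 0.618 [0.50–0.766] at 12 weeks and 33.2 CPM in MASH and 68.2 CPM in chow, a ratio of 0.487 [0.397–0.595] at 24 weeks. Within the NK-like cluster led by Gzmc, Ncr1 and Xcl1, which held 53.6% of the class in MASH and 44.4% in chow at 12 weeks and 83.6% in MASH and 45.8% in chow at 24 weeks, the ratios were 0.464 and 0.461, and in the other cluster 0.890 and 0.572. In conventional dendritic-like cells Slc2a3 was lower as well, at ratios of 0.620 [0.394–0.989] and 0.589 [0.399–0.875], and at 12 weeks in endothelial-like (0.537) and cycling cells (0.556). Against chow hashtags 5 to 8 alone, the conventional dendritic-like ratio at 24 weeks was 1.47, the opposite direction. In the dendritic and endothelial-like cells its levels were under 10% of its highest level in a class of either library at that time, and the part of free RNA at such levels was not tested. Slc2a1 was higher in monocyte-like cells at 12 weeks, with 29.8 CPM in MASH and 19.5 CPM in chow, a ratio of 1.53 [1.04–2.33], and was higher in endothelial-like (1.58 [0.963–2.66]) and cycling cells (1.51 [0.885–2.67]), where the intervals include 1. At 24 weeks it was lower in neutrophil-like cells, at 36.8 CPM in MASH and 56.4 CPM in chow, a ratio of 0.653 [0.521–0.819], and in plasmacytoid dendritic-like cells on 19 UMIs in MASH and 29 in chow, where the interval includes 1. Against chow hashtags 1 to 4 alone the neutrophil-like ratio was 1.03, which is not lower.

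Most hexokinase differences were in myeloid and cycling cells. In neutrophil-like cells at 24 weeks Hk1 had 41.9 CPM in MASH and 23.4 CPM in chow, a ratio of 1.79 [1.34–2.41], and Hk2 had 28.5 CPM in MASH and 14.5 CPM in chow, a ratio of 1.96 [1.37–2.86], while Hk3 did not differ by 1.5-fold (1.01 [0.896–1.14]). Against chow hashtags 1 to 4 alone the ratio of Hk1 was 0.784, the opposite direction, and that of Hk2 6.40. Within the neutrophil-like cluster led by Il1b, Csf3r and Retnlg the ratios of Hk1 and Hk2 were 2.19 and 2.15, and within the cluster of immature granule genes 0.971 and 1.44. Hk3 was higher in NK-like cells at both times, at 10.2 CPM in MASH and 4.37 CPM in chow and then 11.8 CPM in MASH and 4.23 CPM in chow, levels under 10% of that in another class. It was higher in basophil- or mast-like cells at 12 weeks, with 155 CPM in MASH and 73.7 CPM in chow, a ratio of 2.10 [1.55–2.88], and lower in monocyte-like (0.650 [0.522–0.815]) and conventional dendritic-like cells (0.620 [0.428–0.907]) at 24 weeks, the second at under 10% of the level in another class. Cycling cells, a mixture of dividing types, had higher Hk2 and Hk3 in MASH at both times, Hk2 at 3.39 [1.69–7.50] and 1.93 [1.18–3.28], and Hk3 at 1.79 [1.00–3.34] and 5.42 [2.71–12.3], the last being 1.94 without doublet removal. Hk1 was lower at 12 weeks in cycling (0.533 [0.396–0.714]), basophil- or mast-like (0.618 [0.415–0.912]) and erythroid-like cells (0.603 [0.385–0.948]).

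In upper glycolysis, Gpi1 was higher in hepatocyte-like cells at 24 weeks, with 267 CPM in MASH and 146 CPM in chow, a ratio of 1.82 [1.59–2.09], and its 12-week values of 165 CPM in MASH and 153 CPM in chow did not differ by 1.5-fold. It was also higher in fibroblast- or stellate-like cells at 12 weeks (1.73 [1.32–2.32]). Pfkl was higher in fibroblast- or stellate-like cells at both times (1.93 [1.13–3.58] and 1.75 [1.02–3.27]), on 14 UMIs in each chow library. At 12 weeks it was higher in macrophage-like (2.04 [1.13–4.13]) and monocyte-like cells (1.75 [1.27–2.47]) and lower in basophil- or mast-like cells (0.565 [0.336–0.935]). Pfkp was lower in fibroblast- or stellate-like cells at 12 weeks (0.654 [0.451–0.975]), and Pfkm in T-cell-like cells (0.650 [0.411–1.02], which includes 1). Aldoa was higher in macrophage-like cells at both times, with 499 CPM in MASH and 301 CPM in chow, a ratio of 1.66 [1.34–2.08] at 12 weeks and 563 CPM in MASH and 256 CPM in chow, a ratio of 2.20 [1.42–3.6] at 24 weeks. In erythroid-like cells at 24 weeks its ratio was 1.57 [1.00–2.57]. Aldoc was lower in conventional dendritic-like cells at 12 weeks, with 8.34 CPM in MASH and 23.4 CPM in chow, a ratio of 0.357 [0.222–0.573]. It was lower as well in plasmacytoid dendritic-like cells at 12 weeks (0.575 [0.360–0.917]) and in hepatocyte-like cells at 24 weeks (0.544 [0.322–0.885]), and was higher in T-cell-like cells at 24 weeks on 27 UMIs in MASH and 20 in chow, where the interval includes 1 and the level was under 10% of that in another class.

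Pfkfb3, whose product raises the phosphofructokinase activator, was higher in conventional dendritic-like cells at both times, with 75.8 CPM in MASH and 35.6 CPM in chow, a ratio of 2.13 [1.62–2.84] at 12 weeks and 52.8 CPM in MASH and 34.4 CPM in chow, a ratio of 1.53 [1.24–1.90] at 24 weeks. The cluster of this class led by Fscn1, Ccl22 and Il12b held 29.6% of its cells in MASH and 9.62% in chow at 12 weeks, and 12.9% in MASH and 2.95% in chow at 24 weeks. Pfkfb3 stood at 261 CPM in MASH and 201 CPM in chow within that cluster at 12 weeks, and at 20.5 CPM in MASH and 22.7 CPM in chow in the other cluster. Within the other cluster the ratios were 0.904 at 12 weeks and 0.996 at 24 weeks, and the ratio within the Fscn1 cluster was 1.30 at 12 weeks, its 12 chow cells at 24 weeks giving no value. The part of the cluster shares in the class ratio was not tested. In neutrophil-like cells Pfkfb3 was lower at 24 weeks (0.659 [0.504–0.862]). Pfkfb4 was lower in T-cell-like cells at 12 weeks, at 6.48 CPM in MASH and 10.1 CPM in chow, a ratio of 0.640 [0.467–0.872]. Within the clusters led by Il4 and Cxcr6, by Cd8b1, by Lef1 and with Foxp3 the ratios were 0.475, 0.626, 1.07 and 0.910, with intervals that include 1 in each but the first, and the Il4 and Cxcr6 cluster held 29.8% of the class in MASH and 50.6% in chow.

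In lower glycolysis Gapdh, which makes NADH, and the enolase Eno1 differed in the most classes at 12 weeks. In macrophage-like cells at 12 weeks Gapdh had 1084 CPM in MASH and 450.2 CPM in chow, a ratio of 2.41 [2.02–2.89], and Eno1 had 305 CPM in MASH and 118 CPM in chow, a ratio of 2.59 [1.85–3.76]. Pgk1 (1.84 [1.24–2.86]) and Pgam1 (1.63 [1.14–2.42]) were higher there too. In fibroblast- or stellate-like cells Gapdh had 672 CPM in MASH and 266 CPM in chow, a ratio of 2.53 [2.08–3.10] at 12 weeks and 875 CPM in MASH and 412 CPM in chow, a ratio of 2.12 [1.77–2.57] at 24 weeks. Eno1 had 217 CPM in MASH and 69.5 CPM in chow, a ratio of 3.12 [2.14–4.72], then 242 CPM in MASH and 87.9 CPM in chow, a ratio of 2.76 [1.86–4.26]. Pgk1 (2.13 [1.53–3.07] and 2.27 [1.53–3.52]) and Pgam1 (1.59 [1.23–2.09] and 2.69 [1.86–4.02]) were higher at both times, and Tpi1 (1.92 [1.48–2.54]) and Pkm (1.78 [1.40–2.28]) at 24 weeks. The chow values of this class rest on 26 to 122 UMIs per gene. Eno1 has a near-identical retrogene, Eno1b, that can share its reads, so Eno1 is uncertain, and with both summed the fibroblast- or stellate-like ratios were 3.40 and 2.86.

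Monocyte-like cells had higher Gapdh at 12 weeks, with 877 CPM in MASH and 456 CPM in chow, a ratio of 1.93 [1.78–2.09], and higher Eno1 (1.60 [1.44–1.79]) and Tpi1 (1.52 [1.28–1.81]). Their Gapdh hashtag values ran from 860.4 to 957 CPM across the hashtags of the MASH library and 414 to 503 CPM across those of the chow library. In neutrophil-like cells Gapdh (1.80 [1.48–2.20]) and Eno1 (1.59 [1.15–2.24]) were higher at 12 weeks, and Tpi1 (1.78 [1.47–2.17]) and Pgam1 (1.73 [1.53–1.96]) at 24 weeks. Pkm was higher in macrophage-like cells at 24 weeks, on 14 chow UMIs (2.28 [1.36–4.17]). In conventional dendritic-like cells Eno1 (1.56 [1.32–1.85]) and Gapdh (1.57 [1.44–1.71]) were higher at 12 weeks. Pgam1 was lower in erythroid-like cells at 12 weeks (0.591 [0.436–0.803]) and higher in cycling cells at 24 weeks (1.64 [1.45–1.86]). Pklr, the hepatocyte pyruvate kinase, was compared in hepatocyte-like cells alone. It had 136 CPM in MASH and 188 CPM in chow, a ratio of 0.723 [0.571–0.909] at 12 weeks and 188 CPM in MASH and 83.3 CPM in chow, a ratio of 2.26 [1.90–2.68] at 24 weeks, so it was lower in MASH at the earlier time and higher at the later.

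**Figure D4:**
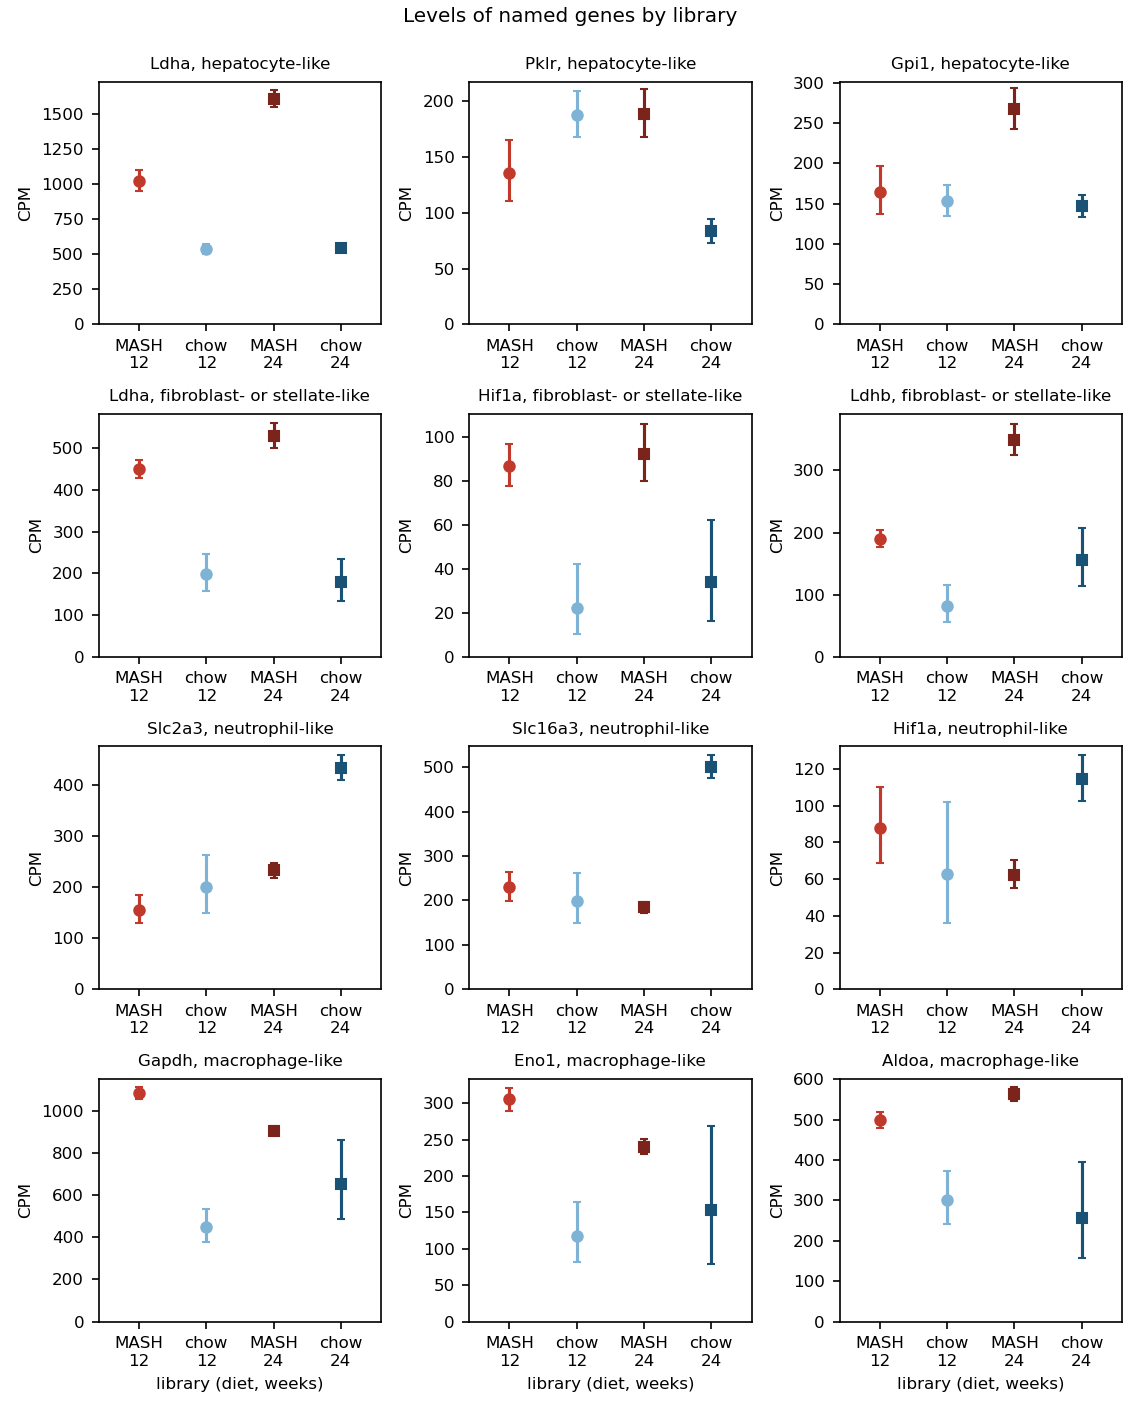
CPM of 12 gene and class combinations in each library, in the order MASH 12 weeks, chow 12 weeks, MASH 24 weeks, chow 24 weeks, with bars for the exact 95% Poisson interval of counting error and axes starting at 0. Ldha in hepatocyte-like cells and Ldha, Hif1a and Ldhb in fibroblast- or stellate-like cells are higher in MASH at both times, while Slc2a3 and Slc16a3 in neutrophil-like cells stand out in the chow library at 24 weeks, at 434 and 501 CPM.

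Among the lactate and pyruvate genes, Ldha in hepatocyte-like cells was higher in MASH at both times, with 1020.3 CPM in MASH and 535 CPM in chow, a ratio of 1.91 [1.73–2.10] at 12 weeks and 1606 CPM in MASH and 543 CPM in chow, a ratio of 2.96 [2.78–3.15] at 24 weeks. At 24 weeks its values ran from 1496 to 1907 CPM across the hashtags of the MASH library and 498 to 715 CPM across those of the chow library, and the ranges were apart at 12 weeks as well. Cells with at least 1000 UMIs were thinned to 1000 UMIs each, and shallower cells were left out. Of the thinned cells, 58.3% of 204 in MASH and 44.7% of 523 in chow had an Ldha UMI at 12 weeks. At 24 weeks 76.8% of 414 in MASH and 41.0% of 993 in chow had one. The whole class held 429 MASH and 1364 chow cells at 12 weeks, and 620 MASH and 1962 chow cells at 24 weeks. Among B-cell-like cells thinned alike the shares at 24 weeks were 11.8% in MASH and 9.45% in chow. Unthinned, over all cells of the class, the hepatocyte-like shares were 58.3% in MASH and 39.4% in chow at 12 weeks. At 24 weeks they were 79.0% in MASH and 45.2% in chow. Pklr had a thinned share of 19.8% in MASH and 8.46% in chow at 24 weeks (unthinned 30.6% in MASH and 10.5% in chow), against 0.0274% in MASH and 0.0605% in chow of T-cell-like cells, which should lack it. Ldha was higher in fibroblast- or stellate-like cells at both times, with 449 CPM in MASH and 199 CPM in chow, a ratio of 2.26 [1.81–2.87] at 12 weeks and 529 CPM in MASH and 179 CPM in chow, a ratio of 2.95 [2.24–3.97] at 24 weeks. It was also higher in macrophage-like cells at 12 weeks (1.52 [1.22–1.92]), and lower at 12 weeks in basophil- or mast-like (0.652 [0.552–0.769]) and erythroid-like cells (0.633 [0.522–0.768]).

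Ldhb differed in opposite directions by class. In fibroblast- or stellate-like cells it had 189.5 CPM in MASH and 82.0 CPM in chow, a ratio of 2.31 [1.63–3.38] at 12 weeks and 349 CPM in MASH and 156 CPM in chow, a ratio of 2.25 [1.67–3.09] at 24 weeks. In T-cell-like cells it had 10.6 CPM in MASH and 28.2 CPM in chow, a ratio of 0.374 [0.300–0.465] at 12 weeks and 18.3 CPM in MASH and 30.3 CPM in chow, a ratio of 0.603 [0.515–0.706] at 24 weeks. Within the 4 T-cell-like clusters the 12-week ratios were 0.406 for the cluster led by Il4 and Cxcr6, 0.429 for that led by Cd8b1, 0.384 for that led by Lef1 and 0.662 for that with Foxp3, all below 1. At 24 weeks they were 0.469, 0.856, 1.23 and 1.22 in the same order, with intervals that include 1 in each but the first. The Il4 and Cxcr6 cluster held 31.5% of T-cell-like cells in MASH and 60.5% in chow at 24 weeks. Ldhb was lower in endothelial-like cells at both times (0.572 [0.469–0.697] and 0.567 [0.396–0.809]), in monocyte-like (0.558 [0.409–0.769]) and plasmacytoid dendritic-like cells (0.661 [0.550–0.796]) at 12 weeks and in NK-like cells at 24 weeks (0.516 [0.292–0.900]). It was higher in neutrophil-like cells at 24 weeks on 45 UMIs in MASH and 11 in chow. The 24-week levels in T-cell-like, NK-like and neutrophil-like cells were under 10% of that in another class.

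The exporter Slc16a3 was lower in neutrophil-like cells at 24 weeks, with 184 CPM in MASH and 501 CPM in chow, a ratio of 0.367 [0.336–0.401], the lowest ratio among the members compared in that class. Its values ran from 178 to 244 CPM across the hashtags of the MASH library and 257 to 625 CPM across those of the chow library. Among neutrophil-like cells with at least 1000 UMIs, thinned to 1000, 18.6% in MASH and 43.6% in chow had a Slc16a3 UMI. Among B-cell-like cells thinned alike the shares were 0.0623% in MASH and 0.0146% in chow. Unthinned, over all cells of the class, the neutrophil-like shares were 35.0% in MASH and 54.3% in chow. Within the Il1b and Csf3r cluster the ratio was 0.402, and within the immature granule cluster 0.822. For Slc2a3 those ratios were 0.518 and 0.887. Against chow hashtags 1 to 4 alone the Slc16a3 ratio was 0.626. At 12 weeks Slc16a3 did not differ by 1.5-fold in these cells (1.15 [0.839–1.60]). In monocyte-like cells it was higher at 12 weeks, with 65.8 CPM in MASH and 43.4 CPM in chow, a ratio of 1.52 [1.17–2.0]. It was higher in T-cell-like (2.06 [1.21–3.63] and 1.88 [1.25–2.85]) and conventional dendritic-like cells (2.10 [1.18–4.02] and 2.04 [1.26–3.43]) at both times and in endothelial-like cells at 12 weeks (2.41 [1.23–5.06]), all at under 10% of the level in another class.

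Slc16a1 was lower at 24 weeks in fibroblast- or stellate-like cells, with 65.5 CPM in MASH and 162 CPM in chow, a ratio of 0.403 [0.289–0.572], and in B-cell-like (0.360 [0.229–0.553]) and cycling cells (0.574 [0.335–0.980]), the last 2 classes at under 10% of the level in another class. Pdk4 was higher in endothelial-like cells at 12 weeks, with 53.4 CPM in MASH and 31.9 CPM in chow, a ratio of 1.67 [1.31–2.15], and near equal at 24 weeks (1.02 [0.713–1.46]). Pdk1 was higher at 24 weeks in hepatocyte-like cells (1.64 [1.17–2.30]) and NK-like cells (1.66 [1.17–2.37]), and lower in cycling cells (0.666 [0.419–1.06], which includes 1).

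Hypoxia sensing genes had 2 higher and 4 lower of 35 pairs at 12 weeks, then 3 and 1 of 29 at 24 weeks. These calls were spread over several classes. Hif1a was higher in fibroblast- or stellate-like cells at both times, with 86.7 CPM in MASH and 22.4 CPM in chow, a ratio of 3.88 [2.02–8.56] at 12 weeks and 92 CPM in MASH and 33.8 CPM in chow, a ratio of 2.72 [1.45–5.76] at 24 weeks, on 9 and 10 chow UMIs. The 12-week ratio was 2.38 without doublet removal and 6.21 in single-hashtag cells, and the 24-week ratio 1.30 against chow hashtags 1 to 4. Counted over the 15 classes, its CPM in MASH was above that in chow in 14 at 12 weeks and in 8 at 24 weeks. In neutrophil-like cells at 24 weeks it was lower, with 62.3 CPM in MASH and 114 CPM in chow, a ratio of 0.544 [0.461–0.642], with ratios of 0.645 and 0.669 within the Il1b and Csf3r cluster and the immature granule cluster, although the hashtag ranges of the 2 libraries overlapped and the ratio against chow hashtags 1 to 4 alone was 0.874. Epas1 in endothelial-like cells, where it was highest, was within 1.5-fold at both times (0.953 [0.885–1.03] and 0.789 [0.702–0.887]). It was lower in B-cell-like (0.555 [0.319–0.95]) and erythroid-like cells (0.497 [0.305–0.809]) at 12 weeks, the first at under 10% of the endothelial-like level. Egln1 was lower at 12 weeks in cholangiocyte-like (0.605 [0.413–0.910]) and basophil- or mast-like cells (0.649 [0.395–1.05], which includes 1). Egln3, itself a HIF target, was higher in T-cell-like cells at 24 weeks, with 7.47 CPM in MASH and 2.84 CPM in chow, a ratio of 2.63 [1.83–3.85]. The Foxp3 cluster, at 2.15 by itself, held 25.1% of T-cell-like cells in MASH and 5.89% in chow at 24 weeks. Egln3 was also higher in neutrophil-like cells at 24 weeks (1.89 [1.35–2.69]) and in endothelial-like cells at 12 weeks (2.13 [1.16–4.13]). In fibroblast- or stellate-like cells it had 185 UMIs in MASH and 1 in chow at 12 weeks and 79 in MASH and 3 in chow at 24 weeks, too few expected in chow to be compared.

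The hypoxia targets had no direction in common. Vegfa was lower in endothelial-like cells at both times, with 16.1 CPM in MASH and 29.0 CPM in chow, a ratio of 0.555 [0.397–0.772] at 12 weeks and 7.57 CPM in MASH and 32.7 CPM in chow, a ratio of 0.231 [0.117–0.431] at 24 weeks, the second on 14 UMIs in MASH and 43 in chow. In monocyte-like cells it was higher at both times, with 24.5 CPM in MASH and 13.8 CPM in chow, a ratio of 1.77 [1.12–2.93] at 12 weeks and 3.12 [1.55–7.35] at 24 weeks on 157 UMIs in MASH and 8 in chow, the last under 10% of the level in another class and at 1.29 against chow hashtags 5 to 8. It was higher in fibroblast- or stellate-like cells at 12 weeks, on 9 chow UMIs (2.63 [1.36–5.82]). Bnip3 was higher in monocyte-like cells at 12 weeks, with 30.9 CPM in MASH and 15.7 CPM in chow, a ratio of 1.97 [1.29–3.13], and lower in endothelial-like cells at 24 weeks (0.574 [0.380–0.861]), at under 10% of its highest hepatocyte-like level. In hepatocyte-like cells, where it was highest, Bnip3 was within 1.5-fold (0.940 [0.796–1.11] and 1.34 [1.21–1.48]). Adm was lower in endothelial-like cells at 24 weeks, with 17.8 CPM in MASH and 32.7 CPM in chow, a ratio of 0.546 [0.336–0.879], and had a 12-week ratio of 0.684 [0.533–0.876]. In fibroblast- or stellate-like cells Adm had 8.8 CPM in MASH and 102 CPM in chow at 12 weeks on 34 and 41 UMIs, outside the rule because too few were expected in chow.

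Gapdh and Eno1 showed a pattern of 1 library beyond the cell classes. Gapdh was lowest in the 12-week chow library in 15 of 15 classes, and Eno1 in 14 of 15. The ratio of Gapdh in chow at 24 weeks to chow at 12 weeks had a median of 1.55 over classes, from 1.39 to 1.98, while in MASH the median was 1.09, from 0.835 to 1.36. Gapdh was higher in MASH than in chow in 15 of 15 classes at 12 weeks and in 11 of 15 at 24 weeks. In B-cell-like cells the Gapdh ratio was 1.60 [1.5–1.70] at 12 weeks and 1.06 [1.02–1.10] at 24 weeks, in plasmacytoid dendritic-like cells 1.52 and 1.03, in basophil- or mast-like cells 1.78 and 1.08, and in cycling cells 1.55 and 0.976. Week, library and hashtag set differ together, so age and library cannot be told apart.

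**Figure D5:**
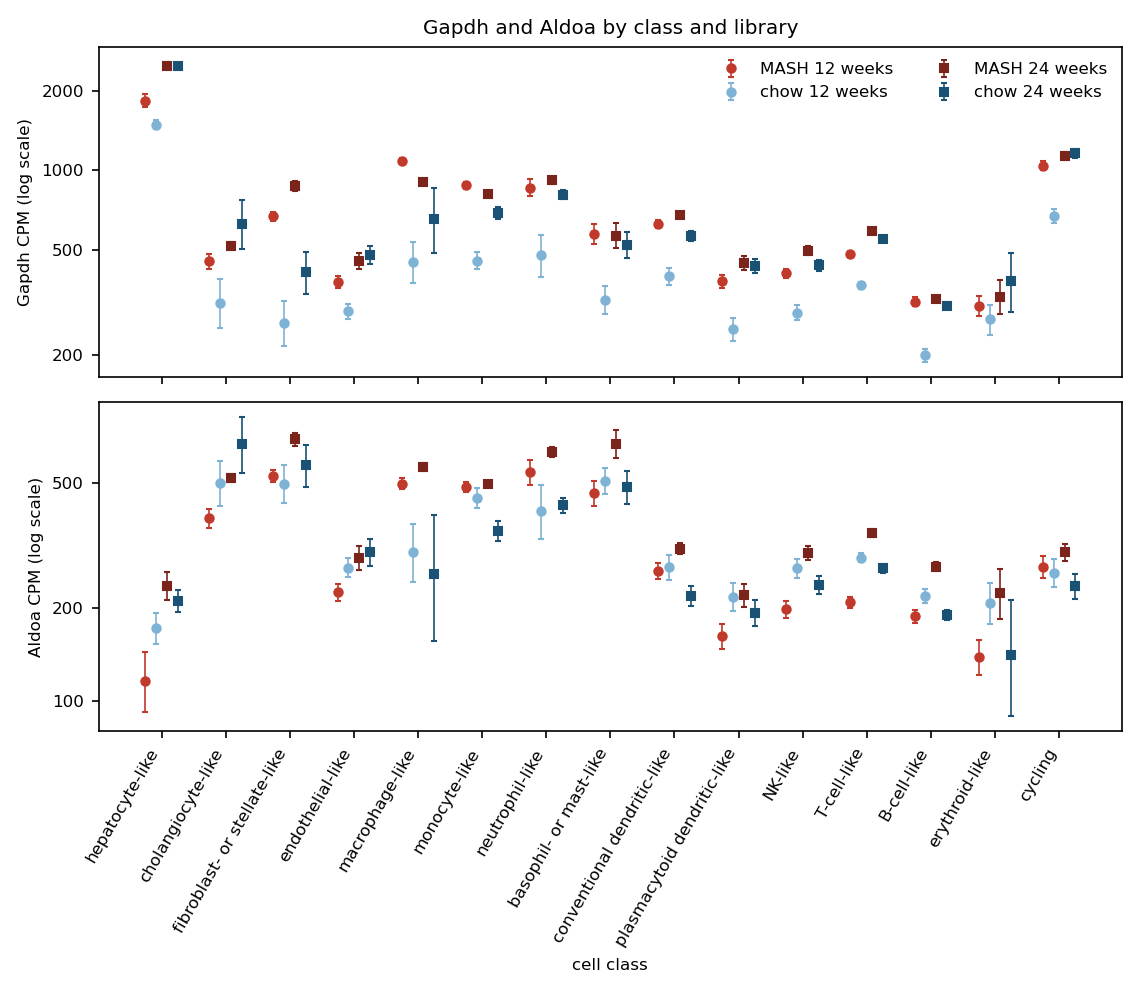
CPM of Gapdh (top) and Aldoa (bottom) on log axes in 15 cell classes, in the order MASH 12 weeks, chow 12 weeks, MASH 24 weeks, chow 24 weeks within each class, with bars for the exact 95% Poisson interval. The 12-week chow point of Gapdh is the lowest of the 4 in each of the 15 classes, whereas Aldoa is higher in MASH at 24 weeks than in MASH at 12 weeks in each of the 15.

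Aldoa and several other enzymes behaved differently from Gapdh in lymphocytes. Aldoa was higher in MASH at 24 weeks than in MASH at 12 weeks in 15 of 15 classes, with a median ratio of 1.34. In T-cell-like cells it had 208 CPM in MASH and 289 CPM in chow, a ratio of 0.719 [0.680–0.759] at 12 weeks and 347 CPM in MASH and 267 CPM in chow, a ratio of 1.30 [1.25–1.36] at 24 weeks. NK-like (0.739 and 1.26) and B-cell-like cells (0.859 and 1.43) had the same order. Pkm in T-cell-like cells had ratios of 0.866 [0.814–0.921] and 1.31 [1.25–1.38], and Ldha 0.860 [0.817–0.905] and 1.20 [1.15–1.25]. The 12-week MASH library was processed with another Cell Ranger version than the other 3, and the part of this in the ratios was not tested.

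Neighbouring pathways were read from lists of other genes. The background for their counts is the share of all genes or pairs given above for the same class and week. The list of 27 other hypoxia-inducible factor genes and targets had 28 higher and 12 lower of 203 gene-class pairs in MASH at 12 weeks, and 19 higher and 19 lower of 202 at 24 weeks. In macrophage-like cells at 12 weeks 5 of 6 compared genes of that list were higher and 1 lower. The citric acid cycle and pyruvate dehydrogenase list had 3 higher and 15 lower of 280 pairs at 12 weeks, and 16 higher and 5 lower of 267 at 24 weeks. In hepatocyte-like cells at 24 weeks 7 of 24 of these were higher and 0 lower, where 19.1% of all genes compared were higher and 6.27% lower. Among those higher were Cs (citrate synthase) at 161 CPM in MASH and 81.0 CPM in chow and Idh3a at 81.7 CPM in MASH and 30.6 CPM in chow. Also there, 4 of 10 other glycolysis and pyruvate genes were higher and 0 lower, including Pfkfb1 at 31.2 CPM in MASH and 10.1 CPM in chow. G6pc, which releases free glucose, was lower, at 6.23 CPM in MASH and 19.2 CPM in chow. The pentose phosphate list had 5 higher and 2 lower of 91 pairs and then 9 higher and 1 lower of 88. Over all classes the list of other glycolysis and pyruvate genes had 5 higher and 17 lower of 121 and then 16 higher and 14 lower of 133, and gluconeogenesis 1 higher and 5 lower of 26 and then 4 higher and 10 lower of 36. Handling stress genes had 57 higher and 13 lower of 216 and then 11 higher and 56 lower of 217, cell cycle genes 7 higher and 9 lower of 59 and then 18 higher and 1 lower of 54, and hepatocyte transcripts, with the hepatocyte-like class included, 27 higher and 6 lower of 71 and then 7 higher and 32 lower of 75. Handling stress genes were thus more often higher in MASH at 12 weeks and more often lower at 24 weeks, and hepatocyte transcripts likewise. In neutrophil-like cells at 24 weeks 8 of 9 compared cell cycle genes were higher and 0 lower, and 5 of 15 handling stress genes were lower and 1 higher. The part of these in the members' ratios was not tested.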

How the data were processed

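Single-cell RNA was measured from 4 mouse liver libraries, 1 for each group, with 10x 5′ chemistry, per the labels' protocols. The deposited matrices hold raw UMI counts per gene and barcode. Per the submitters' processing notes they come from Cell Ranger, 5.0.1 for 3 libraries and 4 for MASH at 12 weeks, and the builds mm10 and GRCh38 are named without a role. The 12-week MASH matrix held 737280 columns that its list of 19014 barcodes did not name, so columns were taken without their barcodes. Other features of the authors' processing are not given in the sources used here.

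Cells with at least 500 UMIs, 300 genes and at most 15% mitochondrial UMIs were kept (82905 cells). Scrublet removed 9.67% to 20.2% of a library as doublets, leaving 71755 cells. Cells were clustered with scanpy 1.11.5 and leidenalg 0.10.2 (2000 variable genes without the 34 members, the other gene lists and the handling stress genes, 30 components, resolution 1), and clusters were named from markers. Clusters with markers of several types (2.60% to 12.6% of a library) or without enough markers (1.32% to 3.82%) were left out of the comparisons. Between 20.9% and 31.0% of cells carried several hashtags.

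UMIs were summed over a class in each library and divided by its total to give CPM. Ratios have exact conditional 95% intervals and levels exact Poisson intervals; both cover counting error only. The rule was tried on simulated counts with known folds. All members that passed the rule are named. Of the other lists, the genes with the largest change were named. Members and lists were chosen with earlier results of these data known, and the values within clusters and the lists of subtype genes were chosen after the class values were seen. With 1 library in each group no p-value was computed. Alternatives were no doublet removal, a stricter cell filter, single-hashtag cells, chow cells of hashtags 1 to 4 or 5 to 8 at 24 weeks, resolution 0.5, scaling to the median ratio, a fold limit of 2 and 5 expected UMIs.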

Additional observations from a re-analysis of the deposited data

Results flagged for a closer look

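For 16 gene-class pairs the ratio of MASH over chow lay below 1 at 12 weeks and above 1 at 24 weeks, with both intervals off 1, and the ratio at 24 weeks was at least 1.5 times that at 12 weeks. The difference between the weeks was not tested, since each week has 1 library per diet. Of 256 pairs compared at both weeks, 24 had intervals off 1 on opposite sides, and 23 of these had the lower ratio at 12 weeks. The same counts over all genes were not made, so they are not read as particular to the members.

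Pklr in hepatocyte-like cells had ratios of 0.723 at 12 weeks and 2.26 at 24 weeks, the second being 3.12 times the first. In the same cells the factor was 1.72 for Tpi1 (0.736 at 12 weeks and 1.26 at 24 weeks), 1.67 for Pgam1 (0.761 at 12 weeks and 1.27 at 24 weeks) and 1.61 for Pgk1 (0.713 at 12 weeks and 1.15 at 24 weeks). Periportal genes were lower in MASH at both times, as given above, and their part in these factors was not tested.

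Aldoa had a factor of 1.81 in T-cell-like cells (0.719 at 12 weeks and 1.30 at 24 weeks), 1.71 in NK-like cells (0.739 at 12 weeks and 1.26 at 24 weeks), 1.66 in B-cell-like cells (0.859 at 12 weeks and 1.43 at 24 weeks) and 1.52 in plasmacytoid dendritic-like cells (0.748 at 12 weeks and 1.14 at 24 weeks). Pgam1 had 1.76 in conventional dendritic-like cells (0.703 at 12 weeks and 1.24 at 24 weeks), 1.60 in T-cell-like cells (0.742 at 12 weeks and 1.19 at 24 weeks) and 1.56 in NK-like cells (0.823 at 12 weeks and 1.29 at 24 weeks). Pkm had 1.71 in plasmacytoid dendritic-like cells (0.828 at 12 weeks and 1.42 at 24 weeks) and 1.52 in T-cell-like cells (0.866 at 12 weeks and 1.31 at 24 weeks). Ldha had 1.64 in conventional dendritic-like cells (0.793 at 12 weeks and 1.30 at 24 weeks) and 1.59 in plasmacytoid dendritic-like cells (0.735 at 12 weeks and 1.17 at 24 weeks), and Gpi1 1.54 in neutrophil-like cells (0.790 at 12 weeks and 1.21 at 24 weeks).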

How the results depend on the processing

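Of the 126 ratios named, 123 kept their direction in each alternative that gave a value. Values were had for 115 of them at resolution 0.5, 125 in single-hashtag cells, and, of the 55 at 24 weeks, 53 against chow hashtags 1 to 4 and 43 against hashtags 5 to 8. Of 714 values in all, 660 lay within the interval of the ratio given. Slc2a3 in conventional dendritic-like cells at 24 weeks reversed to 1.47 against chow hashtags 5 to 8, and Slc2a1 and Hk1 in neutrophil-like cells at 24 weeks to 1.03 and 0.784 against chow hashtags 1 to 4. The cause was not tested. Among higher pairs at 12 weeks (46), a fold limit of 2 left 18 and 5 expected UMIs gave 82. Among lower pairs at 12 weeks (25), single-hashtag cells gave 15, a fold limit of 2 gave 3 and 5 expected UMIs 46. Among higher pairs at 24 weeks (34), chow hashtags 5 to 8 gave 20, a fold limit of 2 gave 17 and 5 expected UMIs 63. Among lower pairs at 24 weeks (21), single-hashtag cells gave 10, chow hashtags 1 to 4 gave 9, hashtags 5 to 8 gave 11, a fold limit of 2 gave 5 and 5 expected UMIs 45. In macrophage-like cells the higher members at 12 weeks (7) became 3 with a fold limit of 2 and 12 with 5 expected UMIs, and at 24 weeks (2) became 7 without doublet removal, 0 against chow hashtags 5 to 8 and 6 with 5 expected UMIs. At resolution 0.5 monocyte-like and macrophage-like cells formed 1 class of 1398 MASH and 464 chow cells at 12 weeks and 2439 MASH and 439 chow cells at 24 weeks, so its counts (7 higher and 1 lower of 25, then 3 higher and 1 lower of 24) are those of another population, and the sinusoidal cluster, with markers of several types, left the endothelial-like class (0 higher and 1 lower of 18 at 12 weeks, then 0 higher and 2 lower of 18). Other class counts moved by over 1.5 times too, among them these: without doublet removal, lower members at 12 weeks became 2 in basophil- or mast-like (4) and 1 in erythroid-like cells (4); in single-hashtag cells, higher members at 12 weeks became 4 in neutrophil-like (2) and 1 in cycling cells (4). A fold limit of 2 left 0 higher members in monocyte-like cells at 12 weeks and 1 higher and 1 lower of 26 in neutrophil-like cells at 24 weeks. Chow hashtags 1 to 4 left fewer than 10 macrophage-like cells and gave no value. Other alternatives kept the macrophage-like counts and those over all classes within 1.5 times. No paired analysis was possible because each group is 1 library. Low cell numbers in chow limit the macrophage-like, fibroblast- or stellate-like and cholangiocyte-like values.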
